A study of Mus musculus with 40 samples.

Results

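The miRNAs of the hypothalamus were compared with those of brown fat in total small RNA from the same series of mice. The comparison used the 5 hypothalamus input libraries and the 5 brown fat input libraries, 10 of the 40 libraries of the series, and every miRNA entry of the count table. Input libraries hold the total small RNA of a tissue, before any pull-down. The series was made to follow miRNAs labelled in brown fat into other organs, and its liver and muscle inputs are used here only to place levels. The mice came from a cross of UPRT mice, which carry Tg(CAG-GFP,-Uprt)985Cdoe/J, with UCP1;cre mice, which carry Tg(Ucp1-cre)1Evdr/J.

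Both groups were male mice of 8 to 12 weeks on standard chow that had received 4-thiouracil (4TU) at 50 mg/kg intraperitoneally, 4 times at intervals of 48 h. UPRT is an enzyme that builds 4TU into new RNA, and the Ucp1 promoter that drives Cre is active in brown adipocytes. Hypothalamus inputs 1 to 5 came from mice 2, 4, 6, 8 and 9, and brown fat inputs 1 to 5 came from mice 2, 4, 6, 7 and 8, so 4 mice gave both tissues. The labels give no genotype for a single mouse and name no group without 4TU or without Cre. As far as they say, both tissues came from mice with the same 4TU injections and transgenes. How much 4TU entered the RNA of each tissue was not tested. All 10 libraries were sequenced in pool 1.

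A miRNA is a short RNA that guides Argonaute proteins to partly matching messenger RNAs and lowers their output. Its precursor is a hairpin whose 5p and 3p arms can each become a mature miRNA, and pairing with targets rests mainly on the seed, bases 2 to 8 of the mature strand. Many miRNAs mark a cell type. In brain, miR-9, miR-124 and miR-128 mark neurons and neural progenitors, miR-219 and miR-338 mark oligodendrocytes, and miR-7 is high in neuroendocrine cells. In brown fat, miR-193b, miR-365, miR-378a, miR-182 and miR-203 belong to the brown adipocyte, and miR-126, miR-143 and miR-199a to its vessels and stroma.

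The mature sequences below are those of the miRNAs on which the comparison turned, in RefSeq's annotation of GRCm38.p6, with the seed in capitals. The first set holds miRNAs with large rises or high levels in hypothalamus.
miR-9-5p: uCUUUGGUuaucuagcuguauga
miR-9-3p: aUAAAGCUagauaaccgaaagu
miR-128-3p: uCACAGUGaaccggucucuuu
miR-135a-5p: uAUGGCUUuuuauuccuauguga
miR-153-3p: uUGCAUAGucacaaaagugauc
miR-127-3p: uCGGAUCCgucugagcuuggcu
miR-770-3p: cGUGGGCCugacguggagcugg
miR-760-3p: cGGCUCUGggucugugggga
miR-873a-5p: gCAGGAACuugugagucuccu
miR-1298-5p: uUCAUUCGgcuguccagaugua
The next set is shown because its members share seeds: miR-7a-5p and miR-7b-5p have 1 seed, miR-200a-3p and miR-141-3p another, and miR-200b-3p, miR-200c-3p and miR-429-3p a further one.
miR-7a-5p: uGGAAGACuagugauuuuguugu
miR-7b-5p: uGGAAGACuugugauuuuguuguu
miR-200a-3p: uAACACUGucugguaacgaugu
miR-141-3p: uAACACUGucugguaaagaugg
miR-200b-3p: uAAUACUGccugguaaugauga
miR-200c-3p: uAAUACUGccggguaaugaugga
miR-429-3p: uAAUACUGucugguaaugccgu
The set that follows holds miRNAs with large falls in hypothalamus. miR-10a-5p and miR-10b-5p have the same seed.
miR-203-5p: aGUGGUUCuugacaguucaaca
miR-203-3p: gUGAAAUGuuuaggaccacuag
miR-365-3p: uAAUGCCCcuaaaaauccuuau
miR-193b-3p: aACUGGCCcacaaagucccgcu
miR-10a-5p: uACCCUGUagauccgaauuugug
miR-10b-5p: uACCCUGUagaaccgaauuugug
miR-451a: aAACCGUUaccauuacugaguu
miR-322-5p: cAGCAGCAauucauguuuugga
miR-126a-3p: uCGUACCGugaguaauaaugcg
The last set gives both arms of miR-708 and miR-431, whose arm use differed between the tissues. The arms of a hairpin have different seeds.
miR-708-5p: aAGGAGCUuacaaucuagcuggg
miR-708-3p: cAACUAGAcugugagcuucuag
miR-431-5p: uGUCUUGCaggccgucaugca
miR-431-3p: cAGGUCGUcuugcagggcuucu

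By the GENCODE M21 annotation of the same assembly, many of these lie in introns of genes on the same strand. The miR-1298 sequence at chrX:147064918-147064939 lies in an intron of Htr2c, the serotonin receptor 2C gene. The miR-153 sequence at chr12:117250860-117250881 lies in an intron of Ptprn2, and miR-873a at chr4:36668556-36668576 in an intron of Lingo2. The 2 copies of miR-128-3p lie in introns of R3hdm1 (chr1:128202404-128202424) and Arpp21 (chr9:112118644-112118664). One of the 2 copies of miR-7a-5p lies in an intron of Hnrnpk (chr13:58392841-58392863), and both arms of miR-708 lie in an intron of Tenm4. The miR-127-3p and miR-431 sequences lie on the strand opposite to an exon of Rtl1, and miR-770-3p lies in an exon of Meg3, a maternally expressed long RNA. Among those that fell, miR-10b-5p lies in introns of Hoxd3 and Hoxd4 (chr2:74726074-74726096), and miR-126a-3p overlaps an exon of Egfl7, an endothelial gene (chr2:26591402-26591423).

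The total count of a library was 1326537, 1195978, 1236469, 152980 and 5562423 in hypothalamus inputs 1 to 5, against 968886 to 2121912 in brown fat inputs. Levels are given as miRNA counts scaled to a library total of 1000000 (CPM), and folds as log2 of hypothalamus over brown fat on the scale of the test (edgeR's quasi-likelihood test after TMM scaling, threshold a Benjamini-Hochberg adjusted p of 0.05). Where 0 counts were found, 3 counts is the upper limit, which is 19.6 CPM in hypothalamus input 4 and 0.539 to 2.51 CPM in the other hypothalamus inputs. This covers counting error only. Tissue is bulk RNA here, so fewer cells of a type and less of a miRNA per cell cannot be told apart. Among all 429 entries tested the median log2 fold change was 0.85 with TMM, 0.20 with RLE scaling and 1.11 with total count alone, so a small fold has no fixed sign.

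Hypothalamus input 4 stood apart from the rest of its group. Across the tested miRNAs its log2 CPM correlated at 0.83 to 0.905 with the other hypothalamus inputs, which correlated at 0.911 to 0.986 among themselves. With brown fat inputs it correlated at 0.656 to 0.701, against 0.403 to 0.535 for the other 4. It was the shallowest library, and it held miRNAs of striated muscle, liver and brown fat far above the other 4 hypothalamus inputs. Hypothalamus inputs 4 and 5 together held much more miR-375-3p and miR-200 family than inputs 1 to 3. Results that rest on these libraries are given with and without them.

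Defining markers of each labelled tissue were present. All 20 neuronal miRNAs were tested and all were higher in hypothalamus, where the list summed to 221000, 207400, 224200, 57760 and 78840 CPM, against 1818, 2163, 2620, 2525 and 2409 CPM in brown fat. The brown adipocyte list summed to 2635, 1679, 1914, 12980 and 2726 CPM in hypothalamus, against 101100, 128200, 129800, 141100 and 109300 CPM in brown fat. Brown fat also held striated muscle miRNAs, whose list summed to 69180 to 293600 CPM, and the muscle miRNA miR-1a-3p was 1 of its 5 most abundant entries.

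The table holds 1894 entries, of which 1131 had a count in any of the 10 libraries and 429 passed the filter on low counts. A total of 216 were higher in hypothalamus (50.3%) and 135 were lower (31.5%), together 81.8%, and 78 did not pass the test. The CPM ranges of the groups did not overlap for 278 of the 429 (64.8%). A change is therefore the usual state of an entry in this comparison, and a list is read against these shares. Without hypothalamus input 4, 225 were higher and 150 lower of 448 tested. Of the 216, 215 remained higher, and 132 of the 135 remained lower.

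**Figure D1:**
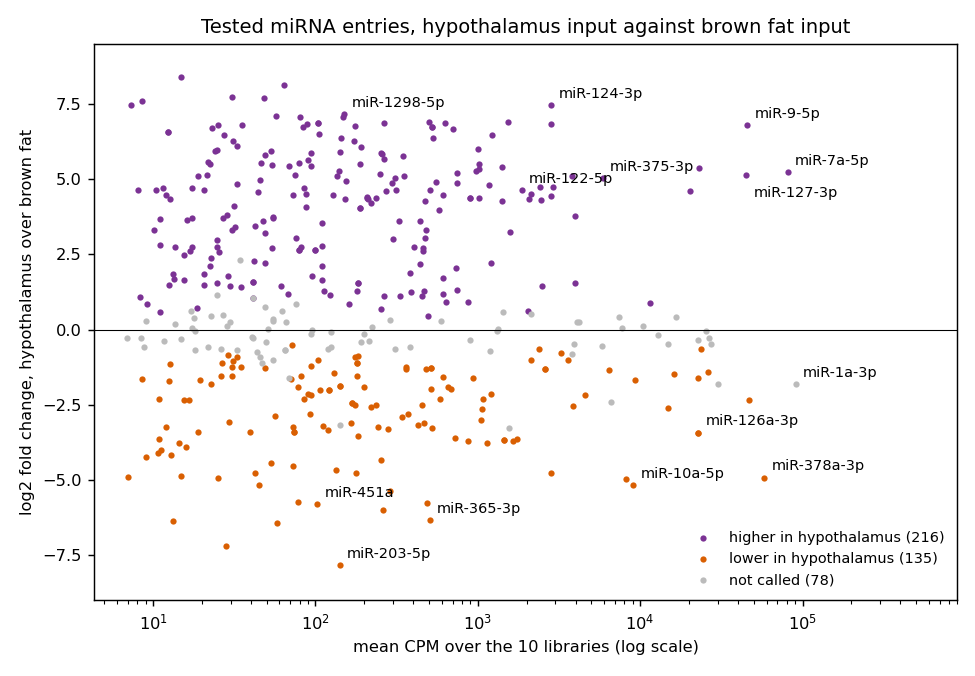
Log2 fold change of hypothalamus over brown fat against the mean CPM over the 10 libraries (log scale) for the 429 tested entries, 1 point each. Colours give the 216 higher, the 135 lower and the 78 not called; neural miRNAs such as miR-9-5p and miR-124-3p lie at the top and miR-203-5p and miR-365-3p at the bottom.

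Both tissues gave most of their reads to few miRNAs. The first 50% of a library's counts took 4 to 10 miRNAs in hypothalamus and 4 to 9 in brown fat. To reach 90% took 55 ± 10.5 miRNAs in hypothalamus and 37.2 ± 5.45 in brown fat (SD, n = 5 each; two-sided exact permutation test, p = 0.0238, smallest possible 0.00794). In hypothalamus the 5 most abundant entries were miR-7a-5p, miR-9-5p, miR-127-3p, miR-7b-5p and miR-128-3p. In brown fat they were miR-1a-3p, miR-378a-3p, miR-143-3p, miR-1b-5p and miR-126b-5p, of which miR-126b-5p lies on the strand opposite to miR-126a-3p and holds the same counts, and miR-1b-5p moved in a fixed proportion to miR-1a-3p in every library.

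Neuronal miRNAs had the highest median of the 20 lists. Their median log2 fold change was 5.36 over 20 of 20 tested, against 0.85 over all tested entries. miR-9-5p, which acts in neural progenitors and neurons, had 132100, 132900, 113000, 29950 and 45340 CPM in hypothalamus inputs 1 to 5, against 555, 648, 567, 503 and 781 CPM in brown fat inputs 1 to 5 (log2 fold change 6.81, SE 0.40, adjusted p 3.06e-08). Its lowest hypothalamus values were in inputs 4 and 5, still far above brown fat. The other arm of the hairpin, miR-9-3p, behaved alike at a lower level, with 7214, 5773, 10180, 2216 and 2488 CPM in hypothalamus against 22.1, 39.2, 35.1, 27 and 61.5 CPM in brown fat (log2 fold change 6.85, SE 0.38, adjusted p 2.55e-08).

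miR-124-3p, the classical neuron-specific miRNA, had 4739, 5069, 14380, 2471 and 1534 CPM in hypothalamus, against 13.2, 25.8, 24.9, 19.3 and 35 CPM in brown fat (log2 fold change 7.46, SE 0.51, adjusted p 1.07e-07). Input 3 held the highest and input 5 the lowest hypothalamus value, and the groups did not overlap. miR-128-3p, a miRNA of mature neurons, had 60080, 45320, 56530, 15570 and 18950 CPM in hypothalamus, against 915, 1053, 1630, 1512 and 919 CPM in brown fat (log2 fold change 4.62, SE 0.36, adjusted p 3.25e-07).

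miR-135a-5p had 2883, 3093, 6739, 1118 and 1497 CPM in hypothalamus, against 14.1, 16.5, 18.7, 16.1 and 29.6 CPM in brown fat (log2 fold change 6.90, SE 0.40, adjusted p 2.71e-08). miR-153-3p, a brain miRNA with synaptic proteins among its known targets, had 302, 285, 1592, 248 and 213 CPM in hypothalamus, against 1.89, 2.06, 3.12, 4.5 and 4.67 CPM in brown fat (log2 fold change 6.87, SE 0.59, adjusted p 6.89e-07). Both were highest in input 3, which for miR-153-3p stood apart from the other 4. miR-383-5p averaged 995 ± 557 CPM in hypothalamus and 6.38 ± 2.72 CPM in brown fat (SD, n = 5 each; log2 fold change 6.89, SE 0.42, adjusted p 3.63e-08). The smallest rises in the list were those of miR-212-3p (2.75) and miR-132-3p (3.004), the 3p arms of an activity-regulated pair from 1 cluster. The 5p arms of this pair rose more, at 4.63 for miR-212-5p and 4.34 for miR-132-5p.

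A few miRNAs were close to absent from brown fat. miR-1298-5p, from the intron of Htr2c, had 378, 424, 406, 118 and 168 CPM in hypothalamus, against 1.89, 2.06, 0.779, 1.29 and 1.56 CPM in brown fat (log2 fold change 7.16, SE 0.36, adjusted p 1.42e-08). miR-760-3p had 389, 451, 369, 111 and 140.2 CPM in hypothalamus, against 0, 1.03, 3.9, 1.29 and 2.33 CPM in brown fat, where the first library had a count of 0 with an upper limit of 1.41 CPM (log2 fold change 7.08, SE 0.59, adjusted p 5.52e-07). miR-873a-5p had 215, 365, 281, 71.9 and 98.9 CPM in hypothalamus, against 0.943, 2.06, 0.779, 1.29 and 1.56 CPM in brown fat (log2 fold change 6.88, SE 0.40, adjusted p 3.01e-08). The entry miR-873b lies on the opposite strand of the same hairpin and has the same values, so the 2 are 1 result. Liver and muscle inputs held these 3 at similarly low levels, at most a mean of 1.97 CPM.

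Of the neuroendocrine list 3 of 4 tested members were higher, with a median of 5.14, and miR-7a-5p was the most abundant entry of hypothalamus. It had 102000, 141200, 75610, 177800 and 293300 CPM in hypothalamus, against 3030, 4652, 3626, 3296 and 5714 CPM in brown fat (log2 fold change 5.25, SE 0.59, adjusted p 7.04e-06). miR-7b-5p, which shares its seed, had 23400, 32380, 18440, 54730 and 96620 CPM in hypothalamus, against 809, 1194, 1030, 812 and 1668 CPM in brown fat (log2 fold change 5.37, SE 0.68, adjusted p 1.93e-05). Both were highest in inputs 5 and 4 and did not overlap with brown fat in any library. Without these 2 libraries the log2 fold changes were 3.99 for miR-7a-5p (adjusted p 1.17e-08) and 3.77 for miR-7b-5p (adjusted p 1.09e-08). Together the seed they share made up 203100 ± 116800 CPM in hypothalamus and 5166 ± 1459 CPM in brown fat (SD, n = 5 each).

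miR-375-3p, a miRNA of pancreatic islets and pituitary, rested on 2 libraries. It had 388, 349.5, 383, 17740 and 38130 CPM in hypothalamus, against 279.5, 446, 396, 288 and 572 CPM in brown fat. With all libraries it was called higher (log2 fold change 5.04, SE 1.49, adjusted p 0.00809). With the mouse as a block the log2 fold change was 0.31 (adjusted p 0.802), and without hypothalamus inputs 4 and 5 it was -0.84 (adjusted p 0.00402). In CPM, hypothalamus inputs 1 to 3 lay within the brown fat range. The value of -0.84 is close in size to the shift between scalings, so no direction is given for miR-375-3p. Mice 7 and 9 gave 1 tissue each. The block therefore takes brown fat input 4 and hypothalamus input 5 out of the tissue contrast, and is no separate check on input 5.

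The miR-200 family, known from epithelial and pituitary cells, behaved in the same way. All 4 tested members were called higher, with a median log2 fold change of 4.85. miR-200a-3p had 185, 59.4, 154, 3759 and 7074 CPM in hypothalamus, against 62.2, 106, 83.4, 68.8 and 136.2 CPM in brown fat (log2 fold change 4.82, SE 1.36, adjusted p 0.00623). miR-200b-3p had 90.5, 31.8, 66.3, 1569 and 3585 CPM in hypothalamus, against 33, 41.3, 33.5, 32.8 and 60.7 CPM in brown fat (log2 fold change 4.90, SE 1.37, adjusted p 0.00585). Inputs 4 and 5 held nearly all of the signal, and the range of inputs 1 to 3 overlapped with that of brown fat. Without inputs 4 and 5, 0 members were higher and 1 was lower by the edgeR test, with values of -0.24 for miR-200a-3p (adjusted p 0.514), -0.14 for miR-200b-3p (adjusted p 0.71) and -0.94 for miR-200c-3p (adjusted p 0.021). The value of miR-200c-3p is close in size to the shift between scalings, so no direction is given for it. With the mouse as a block 0 of the 4 were called, with log2 fold changes of 0.87, 1.02 and 0.41 for these 3. That fit likewise leaves hypothalamus input 5 out of the tissue contrast.

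Oligodendrocyte miRNAs rose in 5 of 5 tested, with a median log2 fold change of 3.70. miR-219a-2-3p, which acts in myelination, had 1942, 1227, 1117, 386 and 502 CPM in hypothalamus, against 5.18, 9.29, 7.79, 6.43 and 9.34 CPM in brown fat (log2 fold change 6.73, SE 0.37, adjusted p 2.40e-08). The entry miR-219b-5p holds nearly the same values, and with overlapping entries counted once 3 entries of the list were higher. miR-338-3p, the other main oligodendrocyte miRNA, rose less, with 234, 199, 878, 85 and 76.9 CPM in hypothalamus, against 54.7, 66.1, 57.7, 64.9 and 119.8 CPM in brown fat (log2 fold change 1.54, SE 0.48, adjusted p 0.0114). Input 3 was the highest, and hypothalamus inputs 4 and 5 lay below brown fat input 5. RLE scaling, DESeq2 or leaving out hypothalamus input 1, 2 or 3 ended the call of miR-338-3p. So did leaving out brown fat input 4 or 5 (adjusted p 0.131 and 0.0542 by the edgeR test). The 2-fold minimum (adjusted p 0.072) and the block in the 4 shared mice alone (adjusted p 0.125) ended it too.

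The list of ependymal and choroid plexus miRNAs also rose in 5 of 5 tested, with a median of 4.33. miR-34c-5p and miR-34b-5p come from 1 cluster used by ciliated cells. miR-34c-5p had 6359, 7035, 6711, 2667 and 4489 CPM in hypothalamus, against 146, 213, 118, 303 and 241 CPM in brown fat (log2 fold change 4.46, SE 0.26, adjusted p 2.95e-08). miR-204-5p, abundant in choroid plexus, had 1161, 868, 1154, 601 and 535 CPM in hypothalamus, against 58.4, 92.9, 82.6, 94.5 and 102 CPM in brown fat (log2 fold change 3.04, SE 0.17, adjusted p 2.75e-08). The remaining 4 of the 9 listed entries did not pass the filter on low counts.

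**Figure D2:**
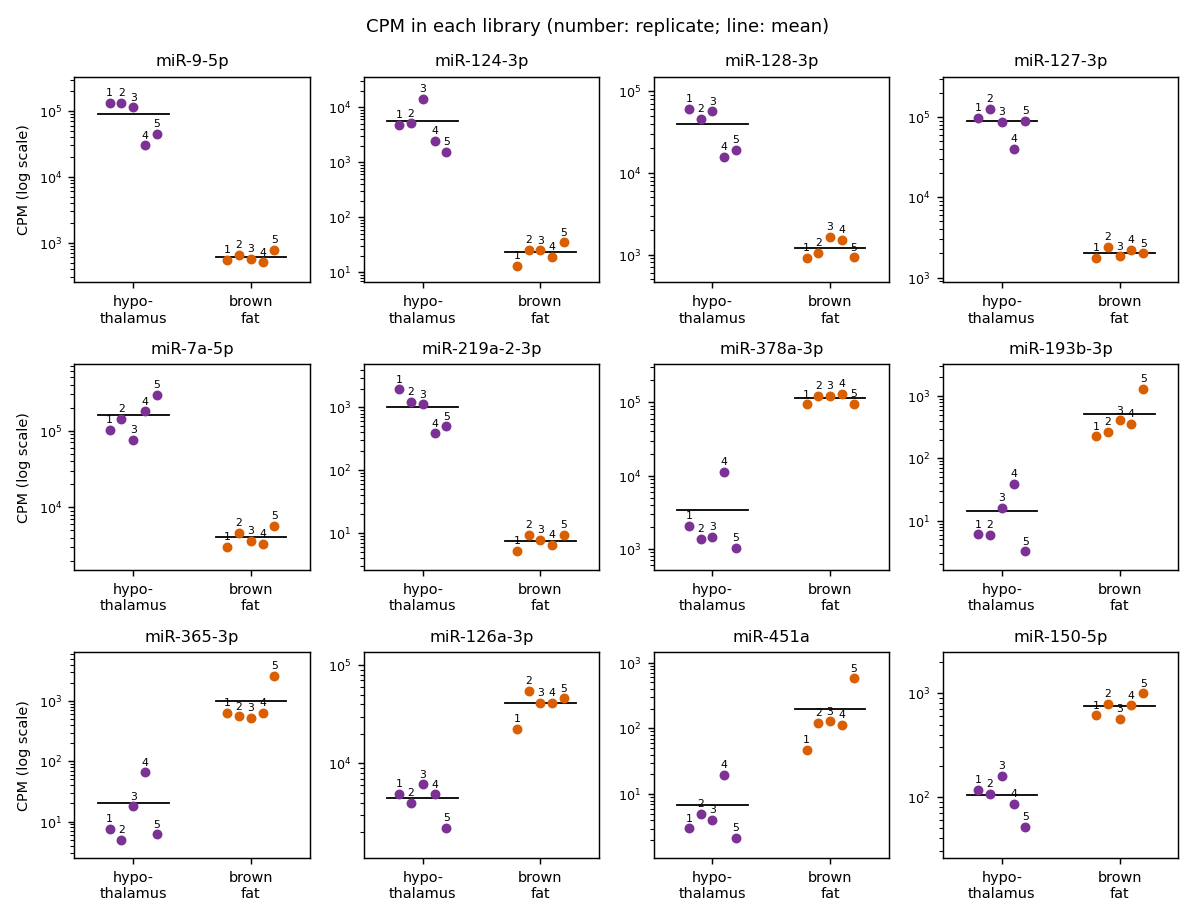
CPM in each library on log axes for 12 miRNAs, with hypothalamus inputs on the left and brown fat inputs on the right of each panel, numbered by replicate, and the group mean as a line. The groups do not overlap in any of the 12 panels; hypothalamus inputs 4 and 5 are lowest for miR-9-5p, and hypothalamus input 4 is highest for miR-378a-3p.

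The imprinted Dlk1-Dio3 region of chromosome 12 rose in every tested member of its 2 listed clusters. Its miRNAs are expressed from the maternal chromosome and are known from brain and placenta. In the miR-379/410 cluster 39 of 39 tested members were higher, with log2 fold changes of 1.49 to 6.38 and a median of 4.49. In the list named for the cluster of miR-127 to miR-136, partly antisense to Rtl1, 18 of 18 tested members were higher, from 2.59 to 7.06 with a median of 4.38. The list also holds miR-673 and miR-770, which form a separate cluster by position. Both extremes came from these, miR-673-5p (2.59) and miR-770-5p (7.06). The 14 tested entries at chr12:109585818-109595387, from miR-337 to miR-136, were all higher, from 2.655 to 5.883. Members of a cluster can come from 1 transcript and are not replicates. The other entries of the 63 and 23 listed did not pass the filter on low counts.

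miR-127-3p was the third most abundant miRNA of hypothalamus, with 97730, 127200, 87530, 39660 and 88620 CPM there, against 1746, 2430, 1839, 2193 and 2004 CPM in brown fat (log2 fold change 5.14, SE 0.31, adjusted p 3.48e-08). miR-770-3p, from an exon of Meg3, had 1612, 2137, 1529, 373 and 606 CPM in hypothalamus, against 4.71, 9.29, 8.57, 10.9 and 7.78 CPM in brown fat (log2 fold change 6.86, SE 0.39, adjusted p 2.58e-08). In both, input 4 was the lowest hypothalamus library, and the groups did not overlap. miR-434-5p averaged 5635 ± 1786 CPM in hypothalamus and 172 ± 31.8 CPM in brown fat (SD, n = 5 each; log2 fold change 4.75, SE 0.21, adjusted p 1.06e-08). In the miR-379/410 cluster, miR-300-3p averaged 7385 ± 2466 CPM in hypothalamus and 177 ± 41.1 CPM in brown fat (SD, n = 5 each; log2 fold change 5.09, SE 0.20, adjusted p 7.35e-09). miR-379-5p had a smaller fold, with 8809, 10010, 6348, 3844 and 8188 CPM in hypothalamus, against 491, 534, 358, 515 and 346 CPM in brown fat (log2 fold change 3.77, SE 0.31, adjusted p 5.32e-07). Positions show the same block: 38 tested entries of 28 hairpins at chr12:109709065-109743784, plus strand, were all higher.

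Brown adipocyte miRNAs fell in 10 of 12 tested, with a median log2 fold change of -4.01. miR-378a-3p, from an intron of the coactivator gene Ppargc1b, had 2086, 1392, 1452, 11240 and 1038 CPM in hypothalamus, against 93620, 121700, 121100, 131300 and 95210 CPM in brown fat (log2 fold change -4.92, SE 0.91, adjusted p 3.50e-04). Input 4 held several times the level of any other hypothalamus input, and without it the log2 fold change was -6.64 (adjusted p 9.00e-09). The 5p arm, miR-378a-5p, had 9.8, 4.18, 8.09, 111 and 6.65 CPM in hypothalamus, against 494, 857, 962, 908 and 1489 CPM in brown fat (log2 fold change -5.79, SE 1.08, adjusted p 3.97e-04). The entry miR-378b followed miR-378a-5p closely over the libraries, so shared reads are possible, and fell alike (-5.38). Without hypothalamus input 4 the log2 fold changes were -7.32 for miR-378a-5p (adjusted p 1.35e-08) and -6.55 for miR-378b (adjusted p 1.43e-08).

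miR-193b-3p and miR-365-3p, which act in brown adipocyte formation, are encoded together on chromosome 16. miR-365-3p has a further copy on chromosome 11 with the same sequence, so its counts cannot be assigned to either locus. miR-365-3p had 7.54, 5.02, 17.8, 65.4 and 6.11 CPM in hypothalamus, against 633, 559, 532, 634 and 2605 CPM in brown fat (log2 fold change -6.35, SE 0.96, adjusted p 7.76e-05). miR-193b-3p had 6.03, 5.85, 16.2, 39.2 and 3.24 CPM in hypothalamus, against 225, 262, 407, 356 and 1283 CPM in brown fat (log2 fold change -6.02, SE 0.81, adjusted p 3.19e-05). Brown fat input 5 was the highest of its group for both, and hypothalamus input 4 the highest of its own, at values near the depth limit of that library. Without hypothalamus input 4 the log2 fold changes were -7.16 for miR-365-3p and -6.49 for miR-193b-3p (adjusted p 1.09e-06 and 2.21e-06).

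miR-203-5p showed the largest fall of all 429 entries, with 0.754, 0, 1.62, 13.1 and 1.44 CPM in hypothalamus, against 313, 184, 278, 283 and 341 CPM in brown fat (log2 fold change -7.82, SE 0.73, adjusted p 1.38e-06). Its count in hypothalamus input 2 was 0, with an upper limit of 2.51 CPM, and the value in input 4 is under the limit of 3 counts in that library. The 3p arm, miR-203-3p, fell less, with 283, 158, 248, 412 and 221 CPM in hypothalamus, against 3318, 2689, 3131, 2843 and 3068 CPM in brown fat (log2 fold change -3.69, SE 0.43, adjusted p 9.75e-06). miR-182-5p had 85.2, 25.9, 33.2, 438 and 783 CPM in hypothalamus, against 1575, 967, 1576, 2207 and 2963 CPM in brown fat (log2 fold change -2.66, SE 1.00, adjusted p 0.0285). Here hypothalamus inputs 4 and 5 were high, and without both the log2 fold change was -6.03 (adjusted p 4.23e-08). With all libraries, a test against a 2-fold minimum did not call miR-182-5p (adjusted p 0.055). The members of the list that did not pass the test were miR-183-5p (-0.40) and miR-96-5p (-0.93), from the same cluster. They rested on the same libraries. Without hypothalamus inputs 4 and 5 both were called lower, at -3.70 for miR-183-5p (adjusted p 8.12e-06) and -5.04 for miR-96-5p (adjusted p 1.38e-06), so that 12 members of the list fell. With the mouse as a block, where hypothalamus input 5 does not enter the tissue contrast, the log2 fold changes were -2.69 (adjusted p 0.0138) and -3.27 (adjusted p 0.00459) for these 2. Without both libraries miR-203-5p was at -9.10 and miR-203-3p at -4.56 (adjusted p 1.46e-09 and 6.51e-09).

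Vessel and stroma miRNAs were lower in hypothalamus in every list. Endothelial miRNAs fell in 4 of 4, smooth muscle and pericyte miRNAs in 4 of 4 and mesenchymal miRNAs in 6 of 6, with medians of -3.55, -2.96 and -3.85. The 4 endothelial entries are 2 measurements, since the miR-126b entries hold the same counts as those of miR-126a, and with overlapping entries counted once 2 endothelial and 5 mesenchymal entries fell. miR-126a-3p, which supports vessel integrity, had 4904, 3993, 6113, 4857 and 2196 CPM in hypothalamus, against 22680, 54400, 41090, 41580 and 46080 CPM in brown fat (log2 fold change -3.43, SE 0.31, adjusted p 1.03e-06). miR-143-3p, of smooth muscle, had 34680, 14720, 19140, 16560 and 6270 CPM in hypothalamus, against 69010, 90800, 71080, 67130 and 77900 CPM in brown fat (log2 fold change -2.34, SE 0.38, adjusted p 1.37e-04). Its partner miR-145a-5p averaged 116 ± 61.8 CPM in hypothalamus and 821 ± 408 CPM in brown fat (SD, n = 5 each; log2 fold change -3.11, SE 0.51, adjusted p 1.60e-04). miR-199a-3p, of fibroblast-like cells and with the same sequence as miR-199b-3p, had 185, 58.5, 156, 732 and 144 CPM in hypothalamus, against 2666, 3328, 2204, 4052 and 3881 CPM in brown fat (log2 fold change -3.63, SE 0.76, adjusted p 9.19e-04). Input 4 was again the highest of the hypothalamus inputs for miR-199a-3p, whose log2 fold change without it was -4.89 (adjusted p 4.21e-07).

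Blood cell miRNAs fell as well. Leukocyte and microglia miRNAs fell in 7 of 7 tested, with a median of -3.40, and red blood cell miRNAs in 3 of 3, with a median of -4.87. miR-150-5p, of mature lymphocytes, had 118, 106, 159, 85 and 51.6 CPM in hypothalamus, against 611, 795, 569.7, 766 and 1002 CPM in brown fat (log2 fold change -3.17, SE 0.22, adjusted p 1.37e-07). miR-146a-5p, which restrains inflammatory signalling, differed less, with 329, 229.9, 441, 373 and 297 CPM in hypothalamus, against 472, 971, 647, 1174 and 1187 CPM in brown fat (log2 fold change -1.57, SE 0.29, adjusted p 3.24e-04). miR-142a-5p averaged 26.5 ± 10.6 CPM in hypothalamus and 213 ± 166 CPM in brown fat (SD, n = 5 each; log2 fold change -3.33, SE 0.52, adjusted p 9.97e-05). miR-451a, the main miRNA of erythrocytes, had 3.02, 5.02, 4.04, 19.6 and 2.16 CPM in hypothalamus, against 47.6, 123, 128, 112 and 579 CPM in brown fat (log2 fold change -5.79, SE 0.84, adjusted p 5.30e-05). Brown fat input 5 stood above the rest of its group for miR-451a.

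The miRNAs of the Hox clusters, which lie within or beside Hox genes, fell in 5 of 5 tested with a median of -5.75. miR-10a-5p had 207, 46, 63.9, 1745 and 65.3 CPM in hypothalamus, against 14710, 23790, 15680, 19260 and 15330 CPM in brown fat (log2 fold change -5.18, SE 1.24, adjusted p 0.00226). miR-10b-5p had 122, 20.1, 56.6, 1902 and 38.3 CPM in hypothalamus, against 12980, 22870, 13940, 16880 and 12530 CPM in brown fat (log2 fold change -4.97, SE 1.40, adjusted p 0.00614). Hypothalamus input 4 held most of what was found there. Without it the log2 fold changes were -7.89 for miR-10a-5p and -8.44 for miR-10b-5p (adjusted p 1.05e-07 and 8.95e-08). miR-615-3p, from the Hoxc cluster, averaged 9.23 ± 16.8 CPM in hypothalamus and 148 ± 61.2 CPM in brown fat (SD, n = 5 each; log2 fold change -5.75, SE 1.03, adjusted p 2.94e-04). Input 4 was far above the other hypothalamus inputs for it, at 39.2 CPM against at most 3.77 CPM, and without it the log2 fold change was -6.81 (adjusted p 1.37e-07).

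Growth-related clusters were lower too. In the miR-17/92 cluster, which acts in proliferating cells, 6 of 6 tested members fell with a median of -2.72. miR-92a-3p averaged 266 ± 80.4 CPM in hypothalamus and 1828 ± 431 CPM in brown fat (SD, n = 5 each; log2 fold change -3.004, SE 0.33, adjusted p 5.58e-06). miR-322-5p, the mouse form of miR-424 from a cluster on the X chromosome, had 9.8, 13.4, 34, 26.1 and 4.49 CPM in hypothalamus, against 141, 426, 319, 262 and 529 CPM in brown fat (log2 fold change -4.76, SE 0.52, adjusted p 5.07e-06). All 9 tested entries of its cluster at chrX:53048008-53054327 were lower. The miR-30 family fell in 10 of 11 tested, with a median of -1.48. miR-30a-5p, its most abundant member, had 18050, 16170, 17040, 14790 and 14580 CPM in hypothalamus, against 29210, 39340, 39390, 38100 and 36100 CPM in brown fat (log2 fold change -1.40, SE 0.24, adjusted p 2.24e-04).

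**Figure D3:**
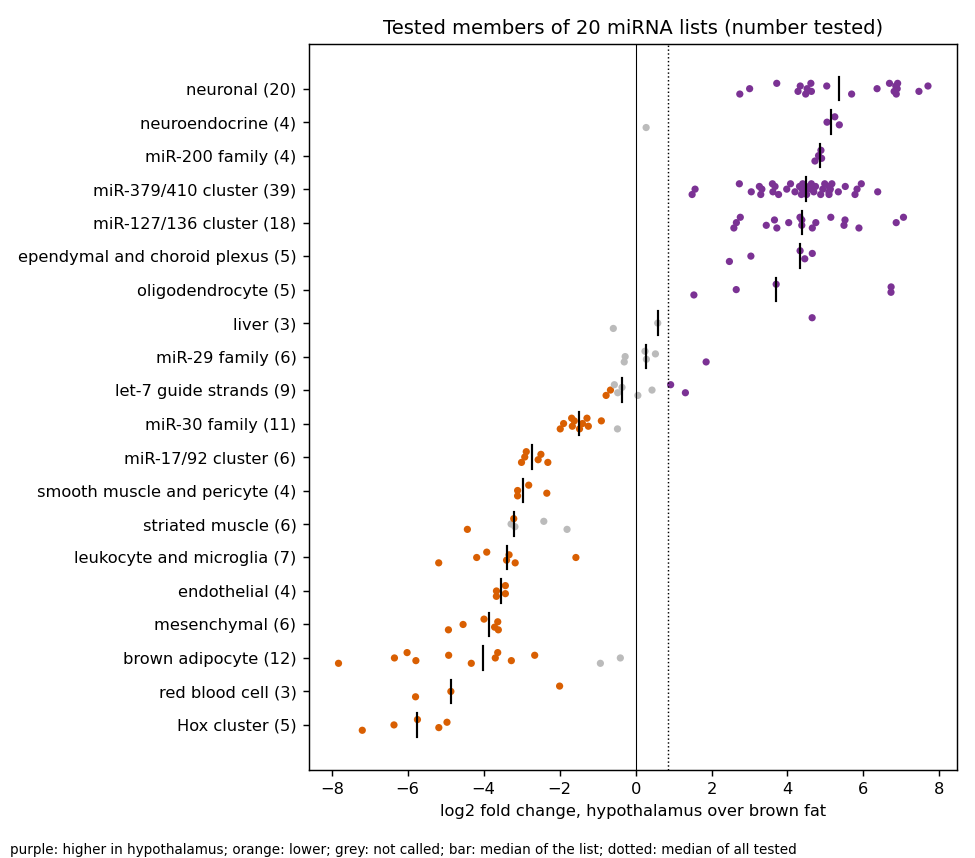
Log2 fold change of hypothalamus over brown fat for the tested members of 20 miRNA lists, ordered by list median (black bar), with the number tested in brackets and the median of all 429 entries as a dotted line. The neural lists and both chromosome 12 clusters lie right of 0, and the brown adipocyte, vessel, blood and Hox lists lie left of it.

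Striated muscle miRNAs depended on hypothalamus input 4. miR-1a-3p had 2475, 1468, 1842, 179100 and 1949 CPM in hypothalamus, against 279900, 63980, 169400, 117700 and 90660 CPM in brown fat, and did not pass the test (log2 fold change -1.80, SE 1.49, adjusted p 0.278). Without hypothalamus input 4 it fell with a log2 fold change of -6.72 (adjusted p 3.07e-06), and with the mouse as a block the value was -5.86 (adjusted p 0.0242). miR-133a-3p, its cluster partner, had 61.8, 42.6, 90.6, 8648 and 97.1 CPM in hypothalamus, against 10870, 4005, 13380, 8565 and 20510 CPM in brown fat (log2 fold change -2.42, SE 1.55, adjusted p 0.169; -7.63 with adjusted p 7.35e-07 without input 4). miR-206-3p, specific to skeletal muscle, had 20.4, 19.2, 17, 1229 and 16.4 CPM in hypothalamus, against 2271, 1031, 3743, 5385 and 1885 CPM in brown fat (log2 fold change -3.28, SE 1.47, adjusted p 0.0581; -7.68 with adjusted p 3.13e-07 without input 4). Of the striated muscle list 2 of 6 tested members were lower with all libraries, 7 without hypothalamus input 4, where more members passed the filter, and 6 with the mouse as a block.

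Liver miRNAs depended on the same library. miR-122-5p, the hepatocyte miRNA, had 200.5, 103, 112, 17090 and 323 CPM in hypothalamus, against 161, 130, 181, 212 and 180.5 CPM in brown fat, and was called higher (log2 fold change 4.65, SE 1.63, adjusted p 0.0201). Without hypothalamus input 4 the log2 fold change was -0.13 (adjusted p 0.799), with the mouse as a block 0.13 (adjusted p 0.934). miR-192-5p, of liver and gut, had 865, 822, 635, 5249 and 741 CPM in hypothalamus, against 1015, 1365, 1110, 1339 and 1150 CPM in brown fat (log2 fold change 0.58, SE 0.72, not past the threshold; -0.98 with adjusted p 0.00192 without input 4). Of the liver list 1 of 3 tested was higher with all libraries, and without hypothalamus input 4 it was 0 higher and 2 lower by the same edgeR test. The mean of miR-122-5p in liver inputs was 398800 CPM and that of miR-1a-3p in muscle inputs 611500 CPM, and the inputs of all 4 tissues were in pool 1. The part of reads from other tissues in these results was not tested.

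**Figure D4:**
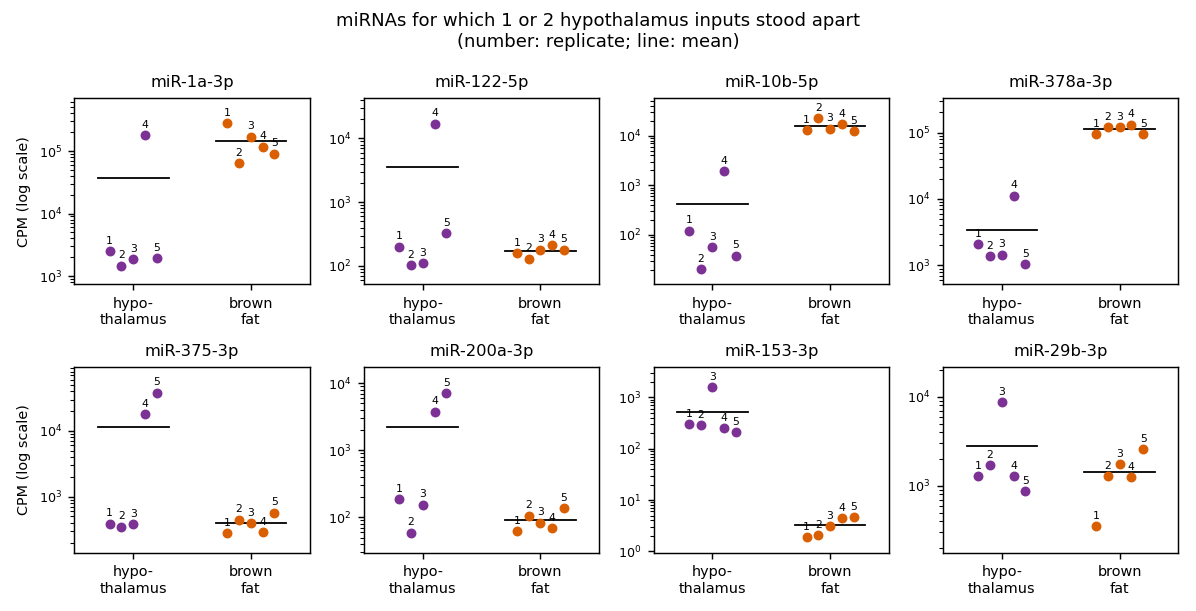
CPM in each library on log axes for 8 miRNAs, hypothalamus inputs left and brown fat inputs right, numbered by replicate, with the group mean as a line. Hypothalamus input 4 is highest of its group for miR-1a-3p (179100 CPM), miR-122-5p (17090 CPM), miR-10b-5p and miR-378a-3p, inputs 4 and 5 for miR-375-3p and miR-200a-3p, and input 3 for miR-153-3p and miR-29b-3p.

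The let-7 and miR-29 families, present in most tissues, differed little, unlike the miR-30 family above. Of the let-7 guide strands, which restrain growth genes, 2 of 9 tested were higher and 2 lower, with a median of -0.36. Their list summed to 115300, 92590, 93300, 65990 and 77200 CPM in hypothalamus, against 90880, 105800, 74100, 85830 and 71370 CPM in brown fat, ranges that overlap. Under RLE scaling 1 was higher and 6 lower, and with total count alone 3 were higher and 0 lower by the edgeR test, so no direction is given for the family. The miR-29 family, which targets collagens and other matrix genes, had 1 of 6 tested higher and 0 lower by the edgeR test. miR-29a-3p had 23890, 28350, 49420, 17810 and 14710 CPM in hypothalamus, against 14260, 22340, 25640, 21430 and 46840 CPM in brown fat (log2 fold change -0.27, SE 0.30, adjusted p 0.415), and its sign changed with total count scaling. miR-29b-3p had 1286, 1694, 8762, 1288 and 863 CPM in hypothalamus, against 354, 1281, 1761, 1242 and 2587 CPM in brown fat (log2 fold change 0.52, SE 0.56, adjusted p 0.399), high in hypothalamus input 3, with its sign changed by RLE scaling.

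Liver and muscle inputs were set beside these differences. The 429 entries were filtered on hypothalamus and brown fat libraries only, so miRNAs found mainly in liver or muscle could hardly enter. By mean CPM, 214 of the 216 miRNAs called higher were at their highest in hypothalamus. The other 2 were miR-122-5p and miR-31-5p, highest in liver, and miR-31-5p was chosen after its values were seen. Of the 135 called lower 126 were highest in brown fat, 4 in liver and 5 in muscle. The 4 were miR-28a-3p, miR-21a-5p, miR-21a-3p and miR-21c, and the 5 were miR-133a-5p and the 4 entries of the 2 opposite-strand copies of miR-486, named after their values were seen. Hypothalamus held the lowest mean of the 4 tissues for 26 of the 135. Over all 429 tested entries hypothalamus was highest for 254 (59.2%) and brown fat for 151 (35.2%), against 13 for liver (3.0%) and 11 for muscle (2.6%). Muscle was lowest for 290, and there miR-1a-3p alone took 59.8 to 63.38% of the counts of a library. The counts for hypothalamus and brown fat therefore follow in large part from the filter, and do not measure tissue specificity.

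Members of a genomic cluster were mostly called in 1 direction. Tested entries with a RefSeq position formed 39 clusters of at least 2 hairpins within 10000 bases on 1 strand. In 16 clusters the called members were all higher, in 18 all lower, and in 4 no member was called. In 23 of the 39 every tested member was called in 1 direction, where 81.8% of all tested entries were called. The clusters are not independent. Some entries, such as miR-92a-3p and miR-19b-3p, count in more than 1 cluster. The cluster of miR-3544-3p and miR-3071 holds the opposite-strand copies of miR-337 and miR-136 counts. That of miR-344d-3p has 1 tested entry. The remaining cluster, on the X chromosome, held miR-98-5p as higher (0.92) and let-7f-2-3p as lower (-0.52), both within the shift between scalings, and the call of let-7f-2-3p was lost without hypothalamus input 4 (adjusted p 0.0997). On chromosome 12, 70 positioned entries were higher, 2 lower and 5 not called.

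Counts were also summed over entries with the same seed. Of 313 seeds tested 143 were higher in hypothalamus (45.7%) and 118 lower (37.7%). Sequences were at hand for 1610 of the 1894 entries, and the 52 tested entries without one hold 6.46 to 33.3% of the counts in hypothalamus and 33.6 to 57.1% in brown fat. This moved the scale: over 231 seeds with 1 entry the log2 fold change of the seed minus that of the entry had a median of -0.873, so seed folds are read against each other only. The numbers of seeds called higher and lower rest on that moved scale too. Among the entries with a sequence, the most abundant seeds in hypothalamus were GGAAGAC of miR-7 (4.41, SE 0.55, adjusted p 8.23e-06), CUUUGGU of miR-9-5p (5.93, SE 0.39, adjusted p 6.68e-08) and GAGGUAG of let-7. The let-7 seed held 88880 ± 18640 CPM in hypothalamus and 85600 ± 13870 CPM in brown fat (SD, n = 5 each) and was called lower on the TMM scale (-1.16, SE 0.31, adjusted p 0.0043). That call rests on the moved scale, and the mean CPM was not lower in hypothalamus, so no direction is given for this seed. The call was lost without the filter on low counts (-0.49, adjusted p 0.142).

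In brown fat the most abundant seeds among entries with a sequence were GAGGUAG of let-7, GUAAACA of miR-30 and UUAUUAC of miR-126b-5p. This is not the order of all seeds in brown fat. Entries left out for lack of a sequence include miR-1a-3p (mean 144300 CPM in brown fat), miR-378a-3p (112600 CPM) and miR-143-3p (75180 CPM). Each of these alone held more than the miR-30 seed. The miR-30 seed held 32010 ± 5482 CPM in hypothalamus and 72650 ± 10070 CPM in brown fat (SD, n = 5 each; -2.32, SE 0.26, adjusted p 3.06e-06). It joins miR-384-5p, a brain miRNA that rose (6.36), to 3 miR-30 members that fell. Of the summed seeds above a mean of 100 CPM, those with the largest rises were UCAUUCG of miR-1298-5p (6.29), GGCUCUG of miR-760-3p (6.27) and AUGGCUU of miR-135a-5p (6.04). miR-124-3p, which had no sequence at hand, is not in this ranking. The largest falls were those of GUGGUUC of miR-203-5p (-8.75), AAUGCCC of miR-365-3p (-7.10) and ACUGGCC of miR-193b-3p and miR-193a-3p (-6.75). Of 38 seeds with more than 1 tested member 6 joined a member that rose to one that fell.

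The use of the 2 arms of a hairpin does not depend on scaling between libraries, since both arms are read in the same library. The log2 ratio of 5p to 3p counts, each with 0.5 added, was tested with limma for 124 hairpins with a mean of at least 10 counts in each arm. It differed for 26 (21%), with a higher 5p share in hypothalamus for 15 (12.1%) and a lower one for 11 (8.87%). The counts of higher and lower shares were 7 and 6 without hypothalamus input 1, 6 and 6 without input 2, 7 and 8 without input 5, 9 and 7 without brown fat input 3 and 11 and 7 without brown fat input 4. With the mouse as a block 8 of the 15 and 7 of the 11 kept their call, among them the 10 hairpins described next. In that fit brown fat input 4 and hypothalamus input 5, from mice with 1 tissue, do not enter the tissue contrast. Most differences left the same arm in front. The leading arm differed by mean share for miR-708, miR-324 and miR-485 among the called hairpins, and with the mouse as a block miR-324 and miR-485 were not called (adjusted p 0.123 and 0.125).

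miR-708, from an intron of Tenm4, changed its leading arm. Its 5p share was 16, 12.9, 34.1, 33.6 and 16.1% in hypothalamus, against 68.7, 59.6, 63.1, 58.3 and 76.5% in brown fat. Every hypothalamus library lay below every brown fat library, and the means were 22.6 ± 10.4% in hypothalamus and 65.3 ± 7.45% in brown fat (SD, n = 5 each) (log2 ratio change -2.82, SE 0.42, adjusted p 9.65e-04). In CPM, miR-708-5p had 198, 182, 463, 235 and 151 in hypothalamus, against 655, 537, 579, 718 and 1398 in brown fat (log2 fold change -1.96, SE 0.35, adjusted p 2.53e-04). miR-708-3p had 1034, 1227, 894, 464 and 788 CPM in hypothalamus, against 298, 363, 338, 513 and 430.3 CPM in brown fat (log2 fold change 0.90, SE 0.20, adjusted p 0.0014). The rise of miR-708-3p is close to the median of all tested entries (0.85) and lies within the shift between scalings, which the arm ratio does not share. The seeds are AGGAGCU for miR-708-5p and AACUAGA for miR-708-3p.

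miR-431, from the strand opposite to Rtl1, had a 5p share of 2.67, 1.9, 5.18, 11.1 and 12.4% in hypothalamus, against 30, 40, 33.3, 52.9 and 33.3% in brown fat (log2 ratio change -3.46, SE 0.55, adjusted p 0.00146). The 3p arm led in both tissues by mean share. Counts of the 5p and 3p arms were 408 and 4638 over the hypothalamus libraries and 29 and 48 over the brown fat libraries, so the brown fat share rests on few reads. miR-203 had a 5p share of 0.265, 0, 0.649, 3.08 and 0.646% in hypothalamus, against 8.62, 6.4, 8.16, 9.05 and 10% in brown fat (log2 ratio change -3.61, SE 0.59, adjusted p 0.00156). Both arms fell in hypothalamus and the 5p arm fell more, with 5p and 3p counts of 13 and 2164 in hypothalamus and 2077 and 22028 in brown fat.

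The 5p arm of miR-125a led in every library, at 98.9 ± 0.21% in hypothalamus and 99.7 ± 0.143% in brown fat (SD, n = 5 each) (log2 ratio change -2.10, SE 0.37, adjusted p 0.00229). miR-10b was called with a log2 ratio change of -2.01 (SE 0.52, adjusted p 0.0211), but its 3p arm had 2 counts in all hypothalamus libraries together. Its 5p shares were 99.9 ± 0.305% in hypothalamus and 99.8 ± 0.04% in brown fat (SD, n = 5 each), so the mean share and the tested log2 ratio differ in sign, and an edgeR test of the arm by tissue interaction did not call it (-1.20, adjusted p 0.65).

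Among the hairpins with a higher 5p share in hypothalamus, miR-329 had 97.6, 98.9, 95.8, 100 and 95% in hypothalamus, against 88.5, 77.3, 81, 70.6 and 69.2% in brown fat (log2 ratio change 3.65, SE 0.52, adjusted p 9.65e-04). miR-342, in which the 3p arm leads in both tissues, had a 5p share of 39.1, 39.9, 16.1, 11.8 and 24.8% in hypothalamus, against 4.05, 7.27, 7.69, 10.4 and 0.645% in brown fat (log2 ratio change 2.63, SE 0.68, adjusted p 0.0211). Groups did not overlap in either, but few reads bear on this. The brown fat libraries together held 37 counts of miR-329-3p and 19 counts of miR-342-5p. For miR-342 the nearest libraries were hypothalamus input 4 at 11.8% and brown fat input 4 at 10.4%. miR-34b shares were 94.1 ± 3.05% in hypothalamus and 82.2 ± 4.71% in brown fat (SD, n = 5 each) (log2 ratio change 1.94, SE 0.37, adjusted p 0.00289), and those of miR-98 were 99.7 ± 0.218% in hypothalamus and 97.7 ± 0.925% in brown fat (SD, n = 5 each) (log2 ratio change 2.48, SE 0.34, adjusted p 9.65e-04). miR-193b rested on 15 and 59 counts of the 5p and 3p arms in hypothalamus, with shares of 20.2 ± 15% in hypothalamus and 5.2 ± 2.49% in brown fat (SD, n = 5 each) (log2 ratio change 2.37, SE 0.61, adjusted p 0.0211). The calls of miR-342 and miR-193b were lost without hypothalamus input 1 (adjusted p 0.0538 for both) or input 2 (adjusted p 0.0632 and 0.0631).

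The next 3 hairpins are given although outside the rule for naming, chosen after their values were seen. miR-132 had 5p shares of 35.7 ± 6.46% in hypothalamus and 18.5 ± 4.44% in brown fat (SD, n = 5 each) (log2 ratio change 1.27, SE 0.29, adjusted p 0.0119), and both arms rose in hypothalamus. With the mouse as a block its arm ratio was not called (1.23, adjusted p 0.0831). miR-221 had 19.4 ± 6.75% in hypothalamus and 6.42 ± 1.68% in brown fat (SD, n = 5 each) (log2 ratio change 1.78, SE 0.33, adjusted p 0.00289). miR-485, in the miR-379/410 cluster, led with its 5p arm in hypothalamus and its 3p arm in brown fat, at 54.7 ± 3.6% in hypothalamus and 41.5 ± 4.46% in brown fat (SD, n = 5 each) (log2 ratio change 0.76, SE 0.23, adjusted p 0.0395), and was not called with the block (0.68, adjusted p 0.125). The calls of miR-338 and miR-3065 are 1 result, since these hairpins lie on opposite strands of 1 locus and their shares mirror each other, and it was not called with the block (adjusted p 0.106).

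**Figure D5:**
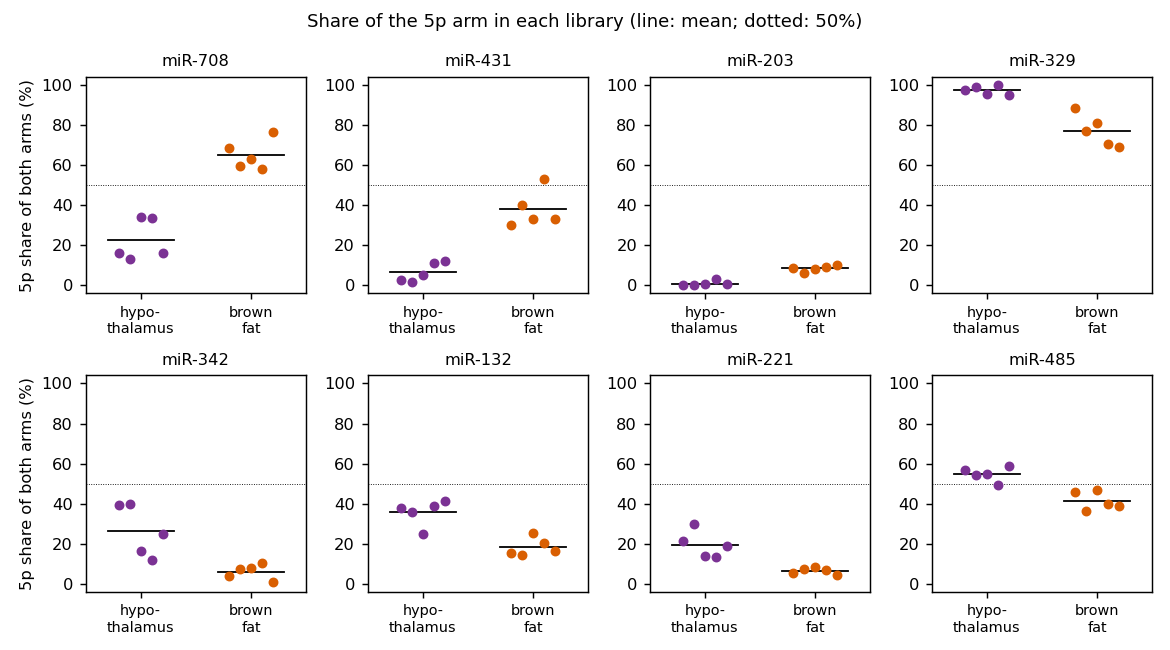
Share of the 5p arm in the counts of both arms, in percent, for 8 hairpins in each hypothalamus input (left) and each brown fat input (right), with the group mean as a line and 50% as a dotted line. For miR-708 all hypothalamus libraries lie between 12.9 and 34.1% and all brown fat libraries between 58.3 and 76.5%, on opposite sides of 50%.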

How the data were processed

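Total small RNA (Trizol-chloroform, NEBNext small RNA libraries, per the labels' protocols) of 5 hypothalamus and 5 brown fat inputs was analysed. The authors deposited 1 table of estimated counts per miRNA entry. The submitters' processing notes name fastp, STAR, featureCounts and mm10, with no versions or settings (not given in the sources used here). Estimated counts were rounded to whole numbers. Reads carry no molecular identifiers, so limits from counts cover counting error only. It is not stated that replicates were prepared separately beyond coming from different mice.

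The test was edgeR 4.0.16 (R 4.3.3) quasi-likelihood with TMM scaling and filterByExpr on the 10 libraries. Arm ratios were tested with limma 3.58.1, and seeds as summed counts. DESeq2 1.42.0, limma-voom, RLE and total count scaling, other filters, all 20 inputs, a 2-fold minimum and leaving out each library were alternatives. The scripts were tested on simulated data.

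Mice 2, 4, 6 and 8 gave both tissues by the labels, so the pairing comes from the labels. Mice 7 and 9 gave 1 tissue each, so a fit with the mouse as a block takes no tissue contrast from them. Deviations of same-mouse libraries correlated at 0.157, 0.247, -0.0118 and 0.0912, within the range of different-mouse pairs (-0.331 to 0.347).

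Named were the 10 largest changes in each direction with at least 100 CPM and ranges that do not overlap, the 5 most abundant entries per group, the 3 most abundant tested members of each list, the 5 largest arm changes in each direction, and 3 seeds each by level and by change. Host genes, extremes and exceptions outside this rule were named after their values were seen. Members and lists were chosen with earlier results of these data known.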

Additional observations from a re-analysis of the deposited data

Results flagged for a closer look

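The named miRNAs were searched for a single library far from the rest of its group, with Dixon's gap test at 95%. Of 152 checks over 76 miRNAs 29 met it, all at the high end. The nominal rate of 1 in 20 assumes normally distributed values. CPM was used here without logs, so the rate met by chance is not known. Some entries share reads, such as miR-1a-3p and miR-1b-5p, and are not separate checks. Hypothalamus input 4 was the high library in 18 of the 29, hypothalamus input 3 in 5 and hypothalamus input 5 in 0.

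In hypothalamus input 4, striated muscle miRNAs lay far above the other 4 hypothalamus inputs, with miR-1a-3p at 179100 CPM, miR-1b-5p at 59690 CPM, miR-133a-3p at 8648 CPM and miR-206-3p at 1229 CPM. The liver miRNAs miR-122-5p at 17090 CPM and miR-192-5p at 5249 CPM did too. So did brown fat miRNAs, with miR-378a-3p at 11240 CPM, miR-378a-5p at 111.1 CPM, miR-378b at 91.52 CPM and miR-365-3p at 65.37 CPM. miR-203-5p also met the gap test there at 13.07 CPM, but that value is under the limit of 3 counts in this library. Stromal miRNAs followed, with miR-199a-3p at 732.1 CPM, miR-199b-3p at 366.1 CPM and miR-199a-5p at 313.8 CPM. The Hox cluster miRNAs miR-10a-5p at 1745 CPM, miR-10b-5p at 1902 CPM and miR-615-3p at 39.22 CPM were high there, as was miR-451a at 19.61 CPM, which is 3 counts in this library.

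In hypothalamus input 3 the miRNAs apart were miR-124-3p at 14380 CPM, miR-153-3p at 1592 CPM, miR-338-3p at 878.3 CPM, miR-29b-3p at 8762 CPM and miR-29c-3p at 2085 CPM. In brown fat input 5 they were miR-365-3p at 2605 CPM, miR-193b-3p at 1283 CPM, miR-451a at 579 CPM, miR-338-3p at 119.8 CPM and miR-144-5p at 73.15 CPM. In brown fat input 2 miR-145a-3p was apart at 941.3 CPM.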

How the results depend on the processing

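The counts of called miRNAs moved by over 1.5 times in these settings: with no filter on low counts 349 were higher and 214 lower, and with DESeq2 241 were lower. With no filter 266 seeds were higher, and with DESeq2 202 seeds were lower. Hairpins with a higher and a lower 5p share numbered 28 and 24 with a pseudocount of 5, 7 and 5 with at least 50 counts per arm, and 38 and 46 with at least 10 counts in 1 arm. The pseudocount of 5 kept 14 of the 15 higher and 10 of the 11 lower calls. It turned 1 called hairpin to the opposite direction, outside the 10 named by the rule. Leaving out 1 library gave 6 to 15 and 6 to 14. Directions turned as follows, in log2 fold change. RLE scaling gave -0.24 for miR-192-5p, -0.058 for miR-29b-3p, -0.29 for miR-29c-3p and -0.17 for let-7i-5p. DESeq2 gave -0.29, -0.0804, -0.32 and -0.20 for the same 4. Total count scaling gave 0.041 for miR-29a-3p, and limma-voom -0.55 for miR-192-5p. Without hypothalamus inputs 4 and 5, a setting chosen after seeing the data, values were -0.84 for miR-375-3p, -1.12 for miR-122-5p, -1.40 for miR-192-5p, -0.24 for miR-200a-3p, -0.14 for miR-200b-3p and -0.94 for miR-200c-3p. Leaving out 1 library gave ranges of -0.74 to 0.34 for miR-29c-3p, -0.24 to 0.59 for let-7i-5p, -0.67 to 0.62 for miR-29b-3p, -0.13 to 4.71 for miR-122-5p and -0.98 to 0.61 for miR-192-5p. The cause was not tested.

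With the mouse as a replicate block 204 miRNAs were higher and 145 lower, 202 and 129 of them shared with the fit without it, and 10 hairpins had a higher and 10 a lower 5p share, 8 and 7 of them shared. The block turned miR-192-5p to -0.46. Brown fat input 4 and hypothalamus input 5 do not enter its tissue contrast, so their absence and the pairing cannot be told apart in it. In the 4 shared mice alone the blocked values were -0.091 for miR-375-3p, -0.27 for miR-122-5p, -0.88 for miR-192-5p, -0.0174 for miR-200c-3p, -0.0711 for miR-29c-3p and -0.0112 for let-7i-5p.

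The depth of hypothalamus input 4 limits low levels there, since 1 count is a large CPM. Reads shared between overlapping entries were counted once in a setting chosen after seeing the data, with 202 miRNAs higher and 129 lower of 406 tested. No group without 4TU or Cre was part of the comparison.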
